A study of Mus musculus with 20 samples.

Results

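The 100 spots described here were those of a 9600-spot mouse array on which lung RNA gave its lowest signal in mice fed flaxseed alone. They were chosen by a level computed for every spot and mouse. The local background was subtracted from the spot's signal, the difference was scaled so that the array's median became 100, 50 was added, and the log2 was taken. For each spot, the lowest of the means of the untreated, irradiated and doubly treated mice was subtracted from the mean of the flaxseed mice. The 100 spots with the most negative result were taken, and that result is called the flaxseed deficit below. The flaxseed deficit and the levels behind it chose the spots, so both are given as a description.

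The lungs came from 20 mice of the inbred strain C57BL/6, in 4 groups of 5 with 1 array per mouse. Untreated mice received neither agent. Flaxseed mice ate a diet with 10% flaxseed for 21 days, irradiated mice received 13.5 Gy to the thorax, and mice given both had the diet and the same radiation. Irradiated mice were killed 48 h after the dose, and the labels used here give no age or sex and do not describe the control diet. Total lung RNA was labelled with 33P by reverse transcriptase and hybridised to one-colour MA11 arrays.

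Flaxseed is rich in alpha-linolenic acid, a plant fatty acid, and in lignans, which gut bacteria turn into compounds with antioxidant and weak oestrogen-like activity. Radiation of the thorax damages DNA and produces reactive oxygen species in the lung, with inflammation and later fibrosis as known outcomes. On an array of this kind, a spot's signal follows the amount of labelled cDNA that binds to it, and so the abundance of the matching RNA in the tissue. Lung tissue mixes epithelial, endothelial, stromal, immune and blood cells, and with such tissue fewer cells of a type and less RNA per cell cannot be told apart.

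The files identify a spot by a running number and do not pair it with a gene, and 0 of the 9600 identifiers were found in the RefSeq gene table used. Spots are therefore named by number, no gene function or sequence is given, and the tissue label was not checked against lung markers. The array median of signal minus background averaged 172 ± 12.7 on flaxseed arrays, against 120 ± 32.0 on untreated, 125 ± 34.1 on irradiated and 112 ± 20.5 on doubly treated arrays (SD, n = 5 each). Arrays of flaxseed mice thus had the highest mean scaling value, and their signals spread less widely above the median than those of untreated and doubly treated mice. The 90th percentile of signal minus background was 5.75 to 7.50 times the array median on the flaxseed arrays. That ratio was 8.25 to 9.23 on untreated, 6.95 to 9.39 on irradiated and 8.86 to 10.7 on doubly treated arrays. The part of these array differences in the flaxseed deficit was not tested.

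The flaxseed deficit of the 100 spots had a median of -0.78 and ran from -1.21 to -0.71 on the log2 scale. On the linear scale, with the added 50, the flaxseed mean was 1.63 to 2.32 times lower than the lowest other group, with a median of 1.72. Over all 9600 spots the same quantity had a median of 0.06, and 33.9% of spots were below 0. The limit of 100 fell within a continuous distribution. The last spot inside it, gene7931, averaged 7.79 ± 0.34 on flaxseed, against 8.58 ± 0.14 for untreated, 8.50 ± 0.41 for irradiated and 8.71 ± 0.16 for doubly treated mice. The first spot outside it, gene7721, averaged 12.05 ± 0.24, against 12.76 ± 0.22, 13.06 ± 0.25 and 13.25 ± 0.50 (SD, n = 5 each). Both deficits were -0.709, so the limit separates spots that hardly differ.

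The chosen spots lay among the bright ones. Their mean level had a median of 10.59, against 7.23 for all spots, and 76 of them were among the 960 brightest spots. Of the 100, 47 were above the 95th percentile of level and 10 above the 99th, and the dimmest was at percentile 52.5. Signal exceeded 2 times the local background on all 20 arrays for 98 of them, against 72.8% of all spots. The added 50 keeps dim spots from reaching a large deficit, so the rule itself favours bright spots. The 884 other spots among the brightest 960 had a median flaxseed deficit of -0.06, with 52.9% below 0. On this scale the other bright spots were therefore slightly lower on flaxseed, and the chosen spots were 7.92% of the brightest 960. That did not hold after quantile normalisation, which gives every array the same distribution of values. There the flaxseed level of the 884 spots differed from untreated mice by a median of 0.01, with 52.0% above 0. From irradiated mice it differed by a median of 0.05, with 52.9% above 0.

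**Figure D1:**
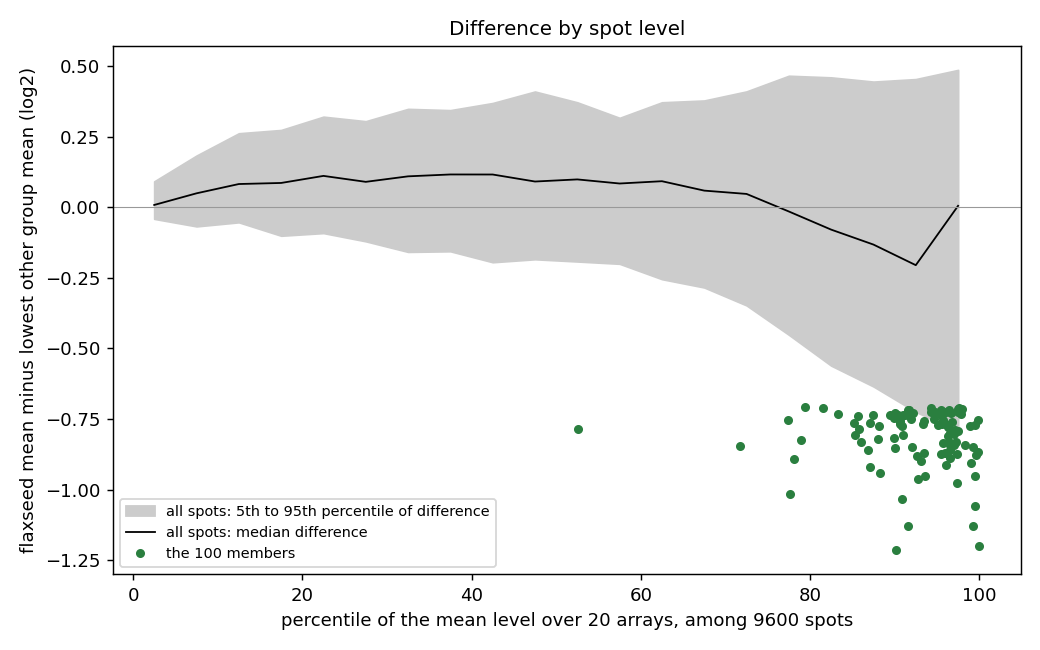
The flaxseed deficit (flaxseed mean minus the lowest other group mean, log2) is plotted against the percentile of a spot's mean level among 9600 spots, with the 100 chosen spots as points and, for all spots, the median as a line and the 5th to 95th percentile as a band. The points, at -1.21 to -0.71, crowd at the bright end, where the band is widest and 76 of them are among the 960 brightest spots.

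The median level over the 100 spots was 10.78, 10.63, 10.63, 10.50 and 10.59 in the 5 untreated mice. It was 9.97, 9.90, 9.90, 9.49 and 9.95 in the flaxseed mice. In irradiated mice it was 10.82, 10.52, 10.90, 11.05 and 10.39. Mice given both treatments had 11.19, 10.99, 10.96, 10.94 and 11.07. Every flaxseed mouse was below every mouse of the other groups, as the choice of spots favours. The doubly treated mice were above every untreated mouse, while the irradiated mice spread over both. The 884 other bright spots had medians of 10.38 to 10.71 in flaxseed mice and 10.48 to 10.89 in irradiated mice. Their medians were 10.76 to 10.94 in untreated mice and 10.79 to 11.08 in doubly treated mice. On those spots and on the scale of the rule, the flaxseed mice were also lower than the untreated mice, by much less, and overlapped the irradiated mice.

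**Figure D2:**
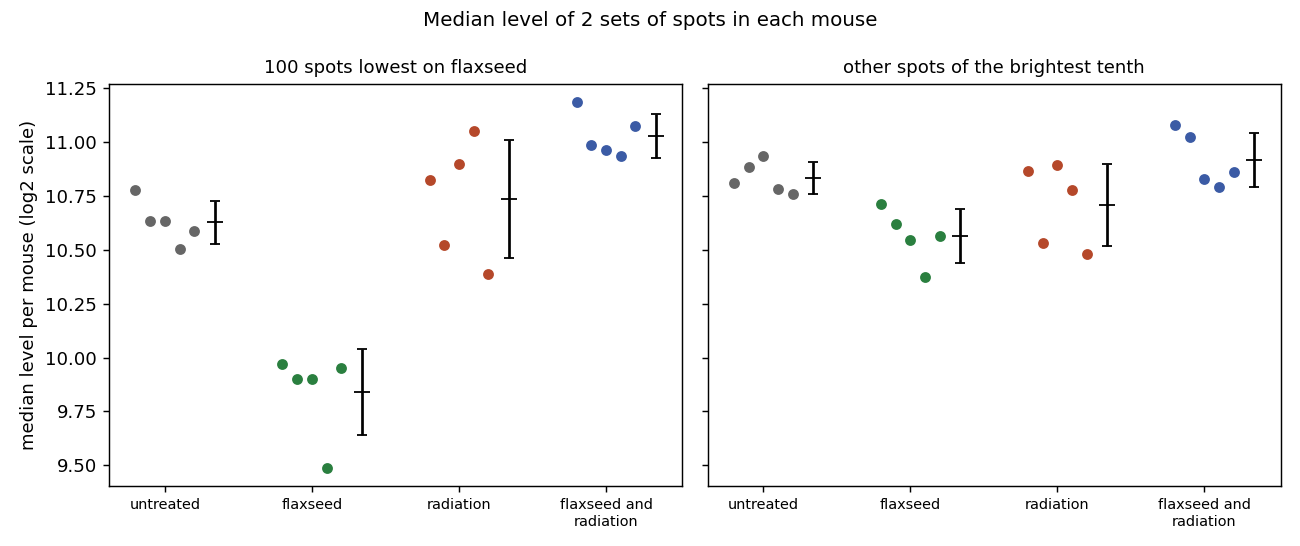
The median level (log2) of the 100 chosen spots and of the other bright spots is plotted as a point for each of the 20 mice, with the group mean and SD as bars. For the chosen spots the flaxseed mice sit between 9.49 and 9.97 and the mice of the other groups between 10.39 and 11.19.

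Before any scaling, most spots were brightest on the arrays of flaxseed mice, and the chosen spots were dimmest there, as their choice favours. On signal minus background with no scaling, the flaxseed mean was the lowest of the 4 groups for 100 of the 100 spots. That held for 6.04% of all spots and for 14.8% of the other bright spots, while 80.2% of all spots had their highest mean in flaxseed mice. The unscaled log2 difference of flaxseed from untreated mice had a median of -0.32 over the chosen spots and 0.50 over all spots. Against irradiated mice these medians were -0.42 and 0.46, and against doubly treated mice -0.58 and 0.61. The spots were chosen for a large deficit in these same signals after scaling. That choice favours a lowest unscaled flaxseed mean, so nothing is read from the count of 100. When spots were chosen again on unscaled signals, 29 of the 100 were shared. In unscaled signal no chosen spot, and no other spot of the array, had all 5 flaxseed mice below all 15 others.

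All 5 flaxseed mice lay below all 15 other mice on 45 of the 100 spots, a pattern seen on 1.3% of all spots. All 5 lay below all untreated mice on 62 of them (3.04% of all spots), below all irradiated mice on 61 (3.62%) and below all doubly treated mice on 90 (7.71%). The rule used these values, so nothing is read from the counts. With quantile normalisation, all 5 flaxseed mice lay below all 15 others on 11 of the 100 spots and on 0.323% of all spots. Shares of all spots are not given for patterns of fewer than 5 flaxseed mice, and nothing is read from those counts. On the scale of the rule, 4 of the 5 flaxseed mice were below all others on 26 spots, 3 on 19 and 2 on 9. The exception was gene3506, named after its values were seen, on which no flaxseed mouse was below all others. Its flaxseed values were 9.09, 9.57, 9.85, 9.12 and 9.67, and irradiated replicate 2 was lower at 8.97.

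The spot with the strongest deficit was gene9020, at -1.21. Its levels were 10.16, 10.64, 9.51, 9.99 and 10.05 in untreated mice and 9.08, 9.01, 8.72, 8.57 and 8.90 in flaxseed mice. Irradiated mice had 10.37, 9.98, 10.09, 10.20 and 10.06, and doubly treated mice 10.11, 9.70, 10.36, 10.11 and 10.40. The flaxseed mice were below all others and the other 3 groups overlapped one another. In limma's linear model on quantile-normalised log2 intensities, its flaxseed level differed from the untreated level by -0.99 (SE 0.167, adjusted p = 0.0157). Without untreated replicate 1 it differed by -0.98 and was not called (limma adjusted p = 0.0509).

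The second, gene5927, was the brightest of the 100 and the brightest spot of the whole array on 17 of 20 arrays. Its levels were 15.26, 15.59, 15.90, 16.04 and 15.12 in untreated mice and 14.54, 14.48, 14.23, 13.68 and 14.97 in flaxseed mice. They were 15.92, 14.99, 16.24, 15.84 and 15.77 in irradiated mice and 16.06, 16.06, 15.99, 16.12 and 16.15 in doubly treated mice. No flaxseed mouse overlapped another group, and the doubly treated mice varied least, with an SD of 0.06. Quantile normalisation gives the brightest spot of each array the same value, which limits any difference of this spot on that scale. There its flaxseed level differed from untreated by -0.60 (SE 0.204, limma adjusted p = 0.210).

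Among the chosen spots that limma called, gene8822 had the largest difference between flaxseed and irradiated mice on the quantile-normalised scale. Its levels were 11.91, 11.60, 11.56, 11.98 and 11.46 in flaxseed mice and 12.96, 12.97, 13.37, 13.33 and 13.01 in irradiated mice. Untreated mice had 12.81, 12.66, 12.91, 12.77 and 12.65, and doubly treated mice 12.77, 12.74, 12.95, 12.96 and 13.69. The flaxseed mice stood apart from all others, and every irradiated mouse was above every untreated one. The limma difference of flaxseed from irradiated mice was -1.38 (SE 0.197, adjusted p = 0.000887).

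The next largest on that scale was that of gene9273. Its flaxseed values of 11.15, 10.50, 10.23, 9.96 and 10.81 were below its irradiated values of 11.69, 11.80, 12.55, 12.15 and 11.35. Untreated mice had 11.60, 11.44, 11.49, 11.79 and 11.21, and doubly treated mice 12.05, 11.69, 11.54, 11.86 and 11.34. All flaxseed mice were below all others, by a small margin for replicate 1. The limma difference of flaxseed from irradiated mice was -1.21 (SE 0.190, adjusted p = 0.0014).

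Among the chosen spots that limma called lower than in untreated mice, gene9181 had the largest difference on the quantile-normalised scale. It spread widely on flaxseed. Its flaxseed values were 6.55, 7.63, 7.57, 7.14 and 8.19, against 8.84, 8.77, 8.58, 8.39 and 8.42 in untreated mice. Irradiated mice had 8.51, 7.95, 8.71, 8.78 and 8.20, and doubly treated mice 8.87, 7.88, 8.49, 8.62 and 8.91. On this spot 4 of 5 flaxseed mice were below all others, and replicate 5 overlapped the irradiated and doubly treated mice. In flaxseed replicate 1, the lowest, the signal was 153 and the local background 83.3, so the signal was under 2 times background. The limma difference from untreated mice was -1.13 (SE 0.236, adjusted p = 0.0374), and the call was lost in 11 of 20 fits that each left out 1 mouse. These were the fits without any of the untreated mice, flaxseed replicates 1, 2 or 4, irradiated replicate 1, or doubly treated replicates 3 or 4.

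Among the chosen spots that limma called, gene1904 and gene7765 had the largest differences between doubly treated and flaxseed mice on the quantile-normalised scale. For gene1904, flaxseed mice had 11.80, 11.23, 11.54, 10.36 and 12.06 and doubly treated mice 13.26, 12.63, 12.85, 13.15 and 12.59. Its untreated values were 12.68, 13.10, 12.50, 11.87 and 12.49, and its irradiated values 12.86, 11.41, 12.50, 12.89 and 11.86. The flaxseed mice were below all doubly treated mice, and some overlapped the lowest untreated and irradiated mice. The limma difference of doubly treated from flaxseed mice was 1.20 (SE 0.266, adjusted p = 0.0074). For gene7765, flaxseed mice had 11.50, 11.87, 11.39, 10.63 and 12.01 and doubly treated mice 13.38, 13.10, 12.16, 12.43 and 13.52. Its untreated values were 12.45, 12.47, 12.44, 11.63 and 12.27, and its irradiated values 12.79, 11.92, 12.74, 11.94 and 12.24. Again the flaxseed mice were below all doubly treated mice and overlapped the lowest untreated and irradiated mice. Here the limma difference of doubly treated from flaxseed mice was 1.17 (SE 0.249, adjusted p = 0.00545).

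**Figure D3:**
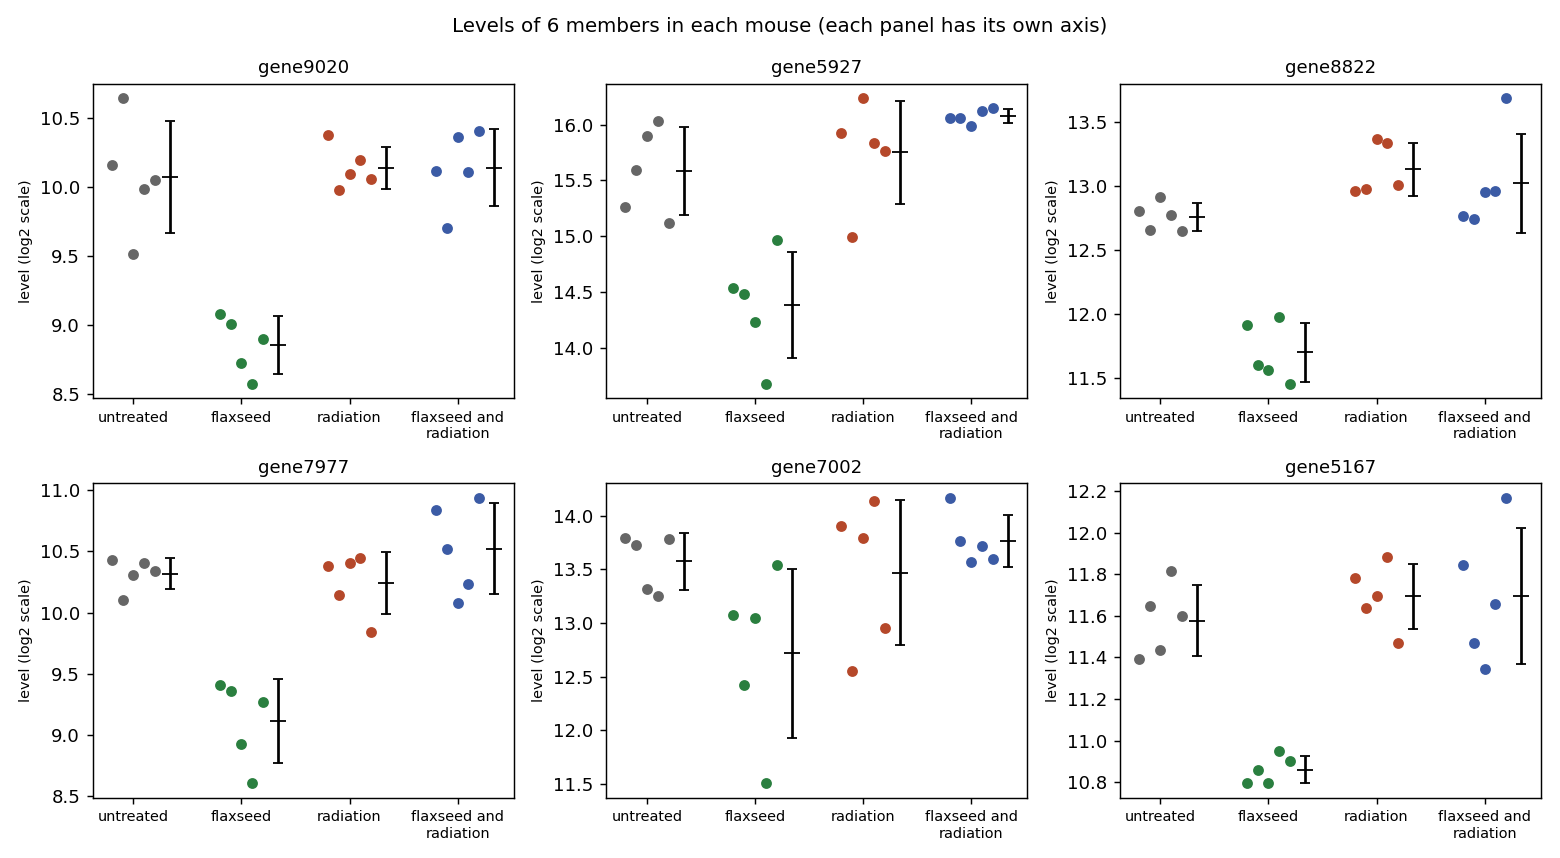
Levels (log2) of 6 of the chosen spots are plotted as points for every mouse by group, with the group mean and SD as bars and a separate axis in each panel. On gene9020 the flaxseed mice, at 8.57 to 9.08, are apart from all others, whereas on gene7002 they spread from 11.50 to 13.54 and overlap the other groups.

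The dimmest of the 100, gene7881, had 6.47, 6.35, 6.96, 6.38 and 7.23 in flaxseed mice and 7.94, 7.33, 7.07, 7.57 and 7.59 in untreated mice. Irradiated mice had 7.33, 7.16, 7.81, 7.68 and 7.33, and doubly treated mice 7.78, 7.47, 7.21, 7.62 and 7.80. Flaxseed replicate 5 overlapped every other group. Its raw signal in flaxseed mice was 88.9 to 216. The 24 chosen spots below the brightest 960 had a median deficit of -0.79, close to the -0.78 of the 76 brighter ones. All flaxseed mice were below all other mice on 6 of the 24 and on 39 of the 76. That held for 1.3% of all spots and 4.07% of the other bright spots. The choice fixes these deficits, and nothing is read from them.

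Spread among the flaxseed mice varied widely from spot to spot. The range over the 5 flaxseed mice was smallest on gene5167, with 10.80, 10.86, 10.80, 10.95 and 10.90, all below the lowest other mouse at 11.34. The limma difference of gene5167 between flaxseed and irradiated mice was -0.65 (SE 0.156, adjusted p = 0.0188). The range was largest on gene7002, with 13.08, 12.42, 13.05, 11.50 and 13.54. There the untreated mice had 13.79, 13.73, 13.32, 13.25 and 13.78 and the doubly treated mice 14.17, 13.76, 13.57, 13.72 and 13.59. The irradiated mice had 13.90, 12.56, 13.79, 14.14 and 12.96, and only 2 flaxseed mice were below all others. The median range over the 100 spots was 0.94 among flaxseed mice, against 0.67 among untreated, 0.77 among irradiated and 0.69 among doubly treated mice. The chosen spots were thus both lowest and most variable on flaxseed.

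Flaxseed replicates 4 and 5 most often stood at the ends of that spread, with replicate 5 the highest of the 5 flaxseed mice on 47 spots. Flaxseed replicate 4 was the lowest of all 20 mice on 61 spots, replicate 3 on 16, replicate 2 on 11, replicate 1 on 7 and replicate 5 on 4. Relative to the group mean, replicate 4 had a median deviation of -0.46 over the 100 spots and replicate 5 one of 0.28. Replicates 1 to 3 had 0.10, 0.05 and 0.08. The array of replicate 4 also had the lowest ratio of the 90th percentile to the median, 5.75, against 7.14 to 7.50 on the other flaxseed arrays, and its part in the spread was not tested. Without replicate 4 the median deficit of the same spots was -0.70, and 73 of them were chosen again.

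**Figure D4:**
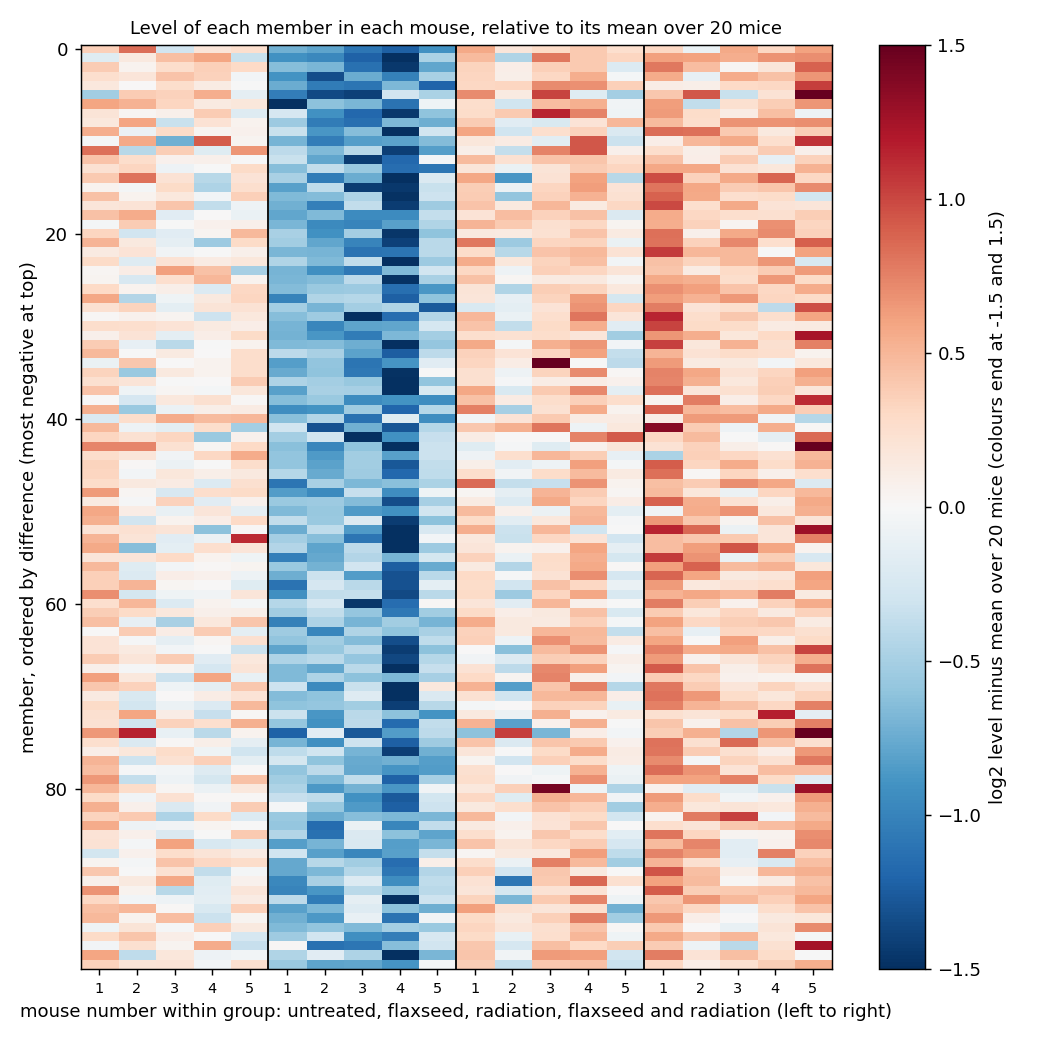
Each row is 1 of the 100 chosen spots, ordered by flaxseed deficit, and each column a mouse; colour is the level minus the spot's mean over all 20 mice (log2). The flaxseed columns are low on most spots, and flaxseed replicate 4, the lowest mouse on 61 spots, stands out among them.

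To measure a flaxseed mouse that had no part in the choice, 100 spots were chosen again without each flaxseed mouse in turn. The mouse left out differed from the lowest other group mean by a median of -0.61, -0.64, -0.54, -0.92 and -0.44 for replicates 1 to 5. It was below that mean on 94, 99, 98, 96 and 96 of the 100 spots. Over all spots the same mice were below it on 38.3%, 39.2%, 40.2%, 44.8% and 40.8%. Each flaxseed mouse lay low on spots chosen from the other flaxseed mice. The means of the other 3 groups had served in the choice, which favours a left-out mouse lying below them. The shares of all spots are not matched for level, so they are no measure of how far the choice accounts for these counts. With 1 mouse of every group left out of the choice, a setting added after seeing the data, the flaxseed mouse was the lowest of those 4 mice on 89, 85, 93, 94 and 69 of 100 spots. The corresponding shares of all spots were 30.8%, 27.2%, 32.1%, 34.6% and 27.7%. Deviations on the same array can be shared by spots, so these counts describe 5 mice and not 100 separate observations. Over the 20 arrays, deviations from the group means of pairs of chosen spots correlated with a median r of 0.319, against 0.181 for the other bright spots.

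The rule set no order among the other 3 groups. The highest mean was that of doubly treated mice on 88 of the 100 spots, irradiated mice on 8 and untreated mice on 4. Over all spots these shares were 29.7%, 23.4% and 22.1%, with flaxseed highest on 24.8%. The lowest of the 3 was the untreated mean on 68 spots, the irradiated on 27 and the doubly treated on 5. On the scale of the rule, doubly treated mice exceeded untreated mice by a median of 0.28 and on 93 spots. They exceeded irradiated mice by a median of 0.21 and on 90 spots. The other bright spots had a median of 0.06 for the first difference, above 0 on 58.5% of them. For the second they had a median of 0.19, above 0 on 87.2%. The excess over irradiated mice was thus close to that of other bright spots. With 75th percentile scaling its median over the 100 spots was 0.12, and with quantile normalisation 0.03. Scaling altered the count as well. Doubly treated mice were highest on 74 spots after 75th percentile scaling (19.8% of all spots) and on 59 after quantile normalisation (24.2%).

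Tests across all 9600 spots used limma with quantile normalisation and Benjamini-Hochberg adjustment. Flaxseed mice were lower than untreated mice on 13 of the 100 spots at an adjusted p under 0.05, and on 0.302% of all spots. They were lower than irradiated mice on 68 (3.7% of all spots), and doubly treated mice were higher than flaxseed mice on 80 (5.08%). The median differences over the 100 spots were -0.55, -0.71 and 0.78. The 3 comparisons share the flaxseed mice and used the values that chose the spots, so their counts describe the choice. The count of 13 depended on single mice, and the shares of all spots called in these fits are not given here. Among untreated mice, leaving out replicate 1 gave 2 calls, replicate 4 gave 5 and replicate 5 gave 4. Among flaxseed mice, leaving out replicate 1 gave 3, replicate 2 gave 6, replicate 4 gave 4 and replicate 5 gave 24. Leaving out irradiated replicate 1 gave 6, and doubly treated replicates 1 to 4 gave 7, 8, 6 and 6. Against irradiated mice, the count fell to 43 when irradiated replicate 4 was left out.

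Radiation without flaxseed was examined by setting irradiated against untreated mice. At an adjusted p under 0.05, limma called 0 of the 100 spots, against 0.0521% of all spots. An unadjusted p under 0.05 was found for 7 of the 100 and for 11.1% of all spots. The differences had a median of 0.16 and ran from -0.37 to 0.54, with 87 above 0 and 12 below. The difference of gene5927 was 0 within 1e-09 in this and the following 2 comparisons, since quantile normalisation gave it the same value in each group, and it is counted on neither side. The spot with the smallest p upward was gene9273, 0.54 higher in irradiated mice (SE 0.190, limma adjusted p = 0.317). The smallest p downward was that of gene9597, at -0.37 (SE 0.278, limma adjusted p = 0.673). Other bright spots had a median of -0.01, with 47.4% above 0. The rule keeps out spots that are low in irradiated or untreated mice, so the differences are not independent of it.

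For doubly treated against untreated mice, limma called 0 of the 100 spots, against 0.0312% of all spots. An unadjusted p under 0.05 was found for 18 of the 100 and for 7.55% of all spots. The median difference was 0.18, with 82 above 0, and other bright spots had -0.02 with 46.6% above 0. The smallest p was that of gene4686, 0.56 higher in doubly treated mice (SE 0.174, limma adjusted p = 0.391). Downward it was that of gene1220, at -0.27 (SE 0.236, limma adjusted p = 0.849). Most differences were above 0, but none passed the test. The rule keeps out spots that are low in doubly treated or untreated mice, so these differences are not independent of it either.

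For doubly treated against irradiated mice, which asks what flaxseed did in irradiated lungs, limma called 0 of the 100 spots, against 0.0104% of all spots. Of the 100, 2 had an unadjusted p under 0.05, against 7.47% of all spots. The median difference was 0.03 with 62 above 0, and other bright spots had -0.01 with 47.4% above 0. The smallest p upward was that of gene4686, at 0.37 (adjusted p = 0.651 in limma), and downward that of gene9273, at -0.45 (adjusted p = 0.623 in limma). The rule keeps out spots with a low mean in either of these groups.

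The interaction is the doubly treated minus the flaxseed level, less the irradiated minus the untreated level. Limma called it on 1 of the 100 spots, gene7977, against 0.0938% of all spots with a positive interaction, and the rule used all 4 groups. Its levels were 10.43, 10.11, 10.31, 10.40 and 10.34 in untreated mice and 9.41, 9.36, 8.93, 8.60 and 9.27 in flaxseed mice. Irradiated mice had 10.38, 10.14, 10.40, 10.45 and 9.84, and doubly treated mice 10.84, 10.52, 10.07, 10.24 and 10.94. The flaxseed mice were below all others and the other groups overlapped. The interaction was 1.04 (SE 0.201, limma adjusted p = 0.0442), with radiation differences of -0.01 without flaxseed and 1.03 with it. The call was lost in 14 of 20 fits that left out 1 mouse each, where the estimate stayed between 0.93 and 1.09. It held only without untreated replicate 2, flaxseed replicates 1, 2 or 5, irradiated replicate 4 or doubly treated replicate 3. Over the 100 spots the interaction had a median of 0.59 and ran from 0.11 to 1.31. With the array's brightness as a term in the model, 0 of the 100 spots were called for the interaction (0.0208% of all spots upward). Against untreated mice 10 were called lower on flaxseed (0.156% of all spots), against irradiated mice 69 (3.62%) and against doubly treated mice 64 (4.02%).

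The chosen spots were not spread evenly over the array. Read from the order of the lines and the identifiers, the array has 80 rows of 120 spots, and 37 of the 100 spots were in rows 71 to 80. The other blocks of 10 rows held 5 to 12 each. Rows 71 to 80 held 131 of the 960 brightest spots, of which 19.1% were chosen, against 6.15% of the 829 in rows 1 to 70. Bright spots that were not chosen had a median deficit of -0.20 in rows 71 to 80, and of -0.12 to 0.05 in the other blocks. Position on the array thus moved with the flaxseed deficit, and its part in the deficit was not tested. The 63 chosen spots in rows 1 to 70 had a median deficit of -0.77, and the 37 in rows 71 to 80 had -0.82. All flaxseed mice were below all other mice on 26 of the 63 and 19 of the 37, against 1.3% of all spots. For these 63 the median level was 10.03 on flaxseed, against 10.80 for untreated, 10.86 for irradiated and 11.19 for doubly treated mice. The rule fixes a deficit of this size for every chosen spot, wherever it lies. The 665 spots adjoining a chosen spot had a median deficit of 0.03, and 21 chosen spots adjoined another.

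**Figure D5:**
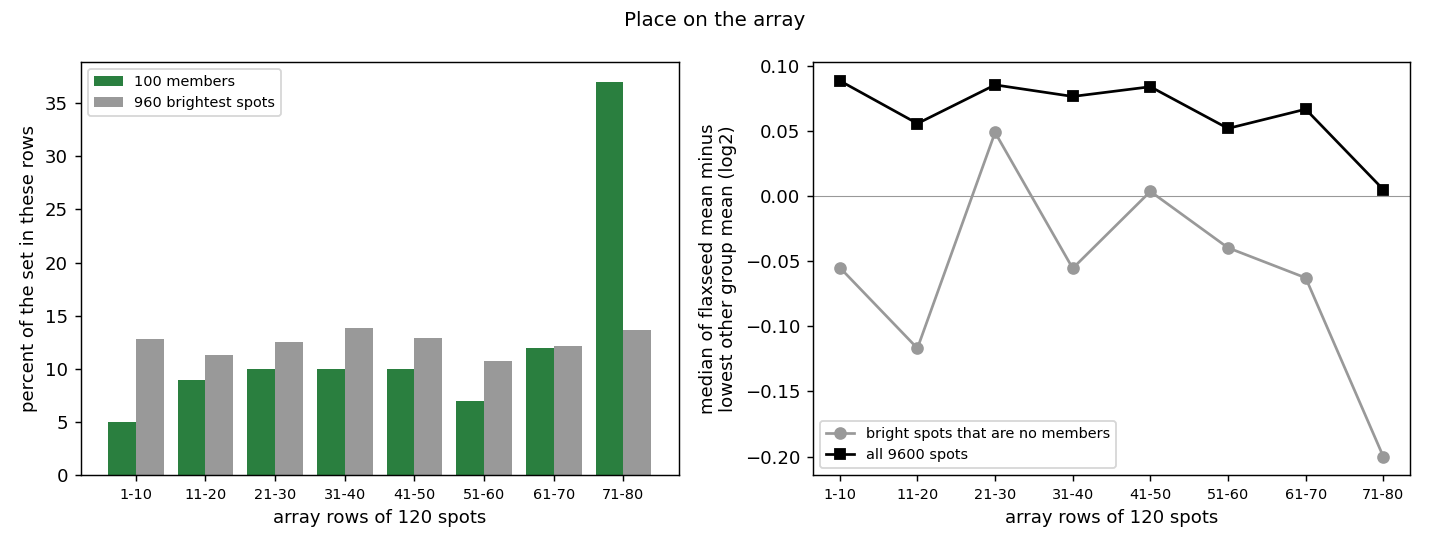
By block of 10 array rows, the left panel shows the percent of the 100 chosen and of the 960 brightest spots that lie there, and the right panel the median flaxseed deficit (log2) of bright spots not chosen and of all spots. Rows 71 to 80 hold 37 of the 100 chosen spots and 13.6% of the brightest, and their bright spots not chosen have the lowest median, -0.20.

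Local background differed less than signal at these spots. The median over the 100 spots of the group mean background was 61.4 on flaxseed, against 63.9 for untreated, 63.9 for irradiated and 71.4 for doubly treated mice. Over all spots the flaxseed value was 31.1, and the other groups had 26.6, 27.3 and 29.1. The background was lowest in flaxseed mice on 39 of the 100 spots and on 2.20% of all spots. The background was thus more often lowest on flaxseed at the chosen spots than over all spots. At the chosen spots the background was higher than over all spots in every group, and no share for other bright spots is given. The rule subtracts this background, so the count is not independent of the choice and nothing is read from it. With no background subtraction their median deficit was -0.71, and 91 of them were chosen again.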

How the data were processed

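The deposited array files give, per the file headers, linear, unnormalised intensities, the median signal and the median background around it, for 9600 spots on each of 20 arrays. No source used here names the scanner or image software. From the same arrays, the authors' deposited intensity table of the whole series equalled signal minus background over the array's median of it (100% of values other than a constant of 0.002, within 1e-04) when matched by line. Matched by spot identifier, 1.63% were equal, so its rows were taken by line and named by the array files. It served as an alternative. Groups came from the treatment labels. Mice carry separate numbers, and replicates were numbered by accession, so numbers do not match mice across groups.

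The levels were computed as described above with Python 3.11.15, NumPy 2.4.6 and pandas 2.3.3, and figures with matplotlib 3.10.9. Tests used limma 3.58.1 in R 4.3.3: normexp background correction with an offset of 50, log2, quantile normalisation, 1 coefficient per group over 20 arrays, eBayes, and Benjamini-Hochberg adjustment over 9600 spots within each comparison. The offset makes log2 differences of dim spots too small. The procedure was tested on simulated data. Errors are SD over 5 mice or limma SE, and the number of arrays limits the precision.

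Named spots were the 2 strongest deficits, the spots on either side of the limit, and the largest called increases and decreases of each comparison, at most 2 each. Where none was called, the smallest p in each direction was taken, and the brightest, the dimmest, the most and the least variable on flaxseed were added. The members, lists and rules were chosen with earlier results of these data known. Marker lists were not used because spots have no gene names. Alternatives were other background corrections, offsets, scalings, variance models, a filter on dim spots, the authors' table, array brightness as a term, and leaving out each mouse.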

Additional observations from a re-analysis of the deposited data

Results flagged for a closer look

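Within single groups, 80 sets of 5 values were examined for a mouse far from the other 4, and 6 had one, where chance gives about 1 set in 20. Flaxseed replicate 4 had the lowest median level over the 100 spots, 9.49, with the next flaxseed mouse at 9.90. The same array had the lowest ratio of the 90th percentile to the median among flaxseed arrays, 5.75, with the next at 7.14. Untreated replicate 1 had the highest array median of signal minus background in its group, 177, with the next at 111. On single spots, untreated replicate 4 was lowest on gene7765 at 11.63, with the next at 12.27. Doubly treated replicate 5 was highest on gene8822 at 13.69, with the next at 12.96, and on gene9597 at 11.61, with the next at 10.29.

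The radiation difference of gene7977 was larger with flaxseed than without it, with an interaction of 1.04 on the log2 scale (limma adjusted p = 0.0442, 5 mice per group). The spot was chosen on the same values of all 4 groups, so this describes the choice, and the call was lost in 14 of 20 fits that left out 1 mouse and in 5 other settings. All 5 flaxseed mice were below all 5 doubly treated mice on this spot, while irradiated and untreated mice overlapped.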

How the results depend on the processing

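The median flaxseed deficit stayed below 0 under every alternative run, and no difference that was recomputed and called changed sign. The choice of spots on these same arrays favours both outcomes, so nothing is read from them. Deficits of single spots were not recomputed without single mice, and some differences of named spots were not recomputed at all. The median deficit of the 100 spots was -0.87 to -0.70 with 1 mouse left out and -0.83 to -0.55 under other scalings, offsets and background settings, but -0.31 in unscaled signal, a setting added after seeing the data. Spots with all flaxseed mice below all others numbered 45 to 62 with 1 mouse left out (1.3% to 2.03% of all spots). After quantile normalisation they numbered 11 (0.323%). In unscaled signal they numbered 0, as they did among all spots. When spots were chosen again, 73 to 99 were shared with 1 mouse left out, 56 under quantile normalisation and 29 in unscaled signal. The median for flaxseed mice left out of the choice was -0.61, measured against the lowest other group mean. It was -0.39 when 1 mouse of each group was left out, a setting also added later. That value was measured against the lowest of the other left-out mice, so it is a different measure and the values are not compared. For flaxseed against untreated mice the count of 13 became 4 with plain subtraction, 6 with an offset of 200, 41 with 75th percentile scaling, 46 in the authors' table and 0 with only those 2 groups fitted, and 2 to 24 with 1 mouse left out. Against irradiated mice the count of 68 was 43 to 76 with 1 mouse left out. The interaction count of 1 became 0 without background correction, with plain subtraction, with an offset of 200, with a variance trend and robust fitting, or with array brightness in the model. It became 8 with 75th percentile scaling and 32 in the authors' table, and was 0 to 4 with 1 mouse left out. Shares of all spots called are not given beside these counts. The counts alone therefore do not tell a change in the 100 spots from a change over the array, and nothing about the 100 spots is read from them. The cause of these changes was not tested. The counts of 0 for the other 3 comparisons stayed at 0 in every alternative. All 100 spots passed the filter on dim spots. No paired analysis was possible because replicates were numbered by accession, so no number links mice of different groups.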
